A study of Homo sapiens with 14 samples.

Results

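The genes described here were 10 cyclins, chosen by their symbols: the D cyclins CCND1, CCND2 and CCND3, the E cyclins CCNE1 and CCNE2, CCNA2, the B cyclins CCNB1 and CCNB2, CCNF and CCNL1. All 10 were among the 15426 genes tested, out of 34232 genes with at least 1 read. They were measured by poly(A) RNA sequencing of MDA-MB-231, an established human triple-negative breast cancer cell line, in 14 libraries that formed 7 groups of 2. The control libraries had received neither compound, although the study's text names the controls in places as untreated and in places as DMSO. The other groups had 5 µM RBI2, a small molecule named in the study as an inhibitor of ribosome biogenesis, or 5 µM CX-5461, an inhibitor of RNA polymerase I transcription, for 10, 30 or 120 min as labelled. All cells had grown overnight in DMEM with 10% serum before treatment, and 1 cell line at 1 dose was used throughout. Nothing in the labels says that replicates were separate cultures, so the p-values measure the spread between these libraries, which may be technical.

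Cyclins are the regulatory subunits of cyclin-dependent kinases (CDKs), and the family takes its name from proteins whose level cycles with cell division. D cyclins link growth signals to CDK4 and CDK6 in G1 phase, E cyclins activate CDK2 at entry into S phase, cyclin A2 serves CDK2 and CDK1 from S phase to mitosis, and B cyclins drive mitosis with CDK1. Cyclin F is an F-box protein that directs other proteins to degradation and activates no known CDK, and cyclin L1 works with CDK11 in transcription and splicing. In cells that are not synchronised, a bulk mRNA level averages over all phases, and fewer cells in a phase cannot be told apart from less of the mRNA per cell.

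The libraries held 14112299 to 24849354 estimated reads (median 16305236). Control replicate 2 stood apart from the other 13: mitochondrial genes took 20.6% of its reads against 8.14% to 11.3%, and it was the highest or the lowest library for 48.9% of all genes tested, against 4.11% to 26.4% for each other library. It was the highest or lowest for 4 cyclins (CCND2, CCND3, CCNA2 and CCNL1), so each cyclin that passed against the control is also given without it. The MDA-MB-231 markers VIM (2080 to 2690 TPM), CD44 (472 to 750 TPM) and AXL (239 to 392 TPM) were high in every library, whereas the hormone receptor ESR1 reached at most 0.205 TPM and PGR was at 0. Of 11 markers of other cell types 9 were too low to test, and their summed level ran from 28.2 to 32.1 TPM in the control and from 29.0 to 41.3 TPM in the treated groups, most of it ERBB2 and EPCAM. Both of these were tested, and in RBI2 120 min against the control ERBB2 passed as higher (log2 fold change 0.41, adjusted p = 0.0202) and VIM, 1 of 5 MDA-MB-231 markers, as lower (-0.22, adjusted p = 0.0346). Neither passed without control replicate 2, and their part in the results was not tested. GAPDH, the reference gene of the study, passed in no comparison (adjusted p from 0.274 to 0.981). The deposited files of the groups labelled 10, 30 and 120 min carry the numbers 02, 10 and 30 in their names. Which of these gives the minutes was not tested, and times are given as labelled.

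Promoter sequences show how differently these genes are built upstream of their start. RefSeq promoters (GRCh38.p14, the 250 bases before the annotated start) were matched for 7 of the 10 genes, but not for CCND1, CCND2 and CCNE2. Both strands were searched for the CCAAT box (letters CCAAT), the cell-cycle homology region or CHR (TTTGAA or TTCGAA), an E2F site (TTTCCCGC, TTTGGCGC, TTTCGCGC or TTTGCCGC), the cAMP response element or CRE (TGACGTCA) and the GC box (GGGCGG). Of 35116 promoters of this length, 32.0% held a CCAAT box, 14.3% a CHR, 2.79% an E2F site, 1.65% a CRE and 42.6% a GC box. The sequences of CCNA2, CCNB2, CCNF and CCNL1 are printed because these genes passed in 1 or more comparisons and hold CCAAT, CHR or CRE letters, which are in capitals. Each is given 5′ to 3′ on the strand of its gene: CCNA2 at chr4:121823884-121824133 on the minus strand, CCNB2 at chr15:59104896-59105145 on the plus strand, CCNF at chr16:2429197-2429446 on the plus strand and CCNL1 at chr3:157160148-157160397 on the minus strand.
CCNA2: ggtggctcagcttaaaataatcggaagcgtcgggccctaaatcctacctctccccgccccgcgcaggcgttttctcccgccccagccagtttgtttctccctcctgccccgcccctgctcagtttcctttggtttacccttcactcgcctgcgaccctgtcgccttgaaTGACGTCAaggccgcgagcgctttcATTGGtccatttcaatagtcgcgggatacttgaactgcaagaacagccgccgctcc
CCNB2: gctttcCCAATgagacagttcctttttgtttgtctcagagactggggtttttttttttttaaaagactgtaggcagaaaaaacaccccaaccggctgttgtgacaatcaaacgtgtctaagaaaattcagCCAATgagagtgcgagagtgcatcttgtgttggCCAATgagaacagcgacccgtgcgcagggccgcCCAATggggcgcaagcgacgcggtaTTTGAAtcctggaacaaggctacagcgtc
CCNF: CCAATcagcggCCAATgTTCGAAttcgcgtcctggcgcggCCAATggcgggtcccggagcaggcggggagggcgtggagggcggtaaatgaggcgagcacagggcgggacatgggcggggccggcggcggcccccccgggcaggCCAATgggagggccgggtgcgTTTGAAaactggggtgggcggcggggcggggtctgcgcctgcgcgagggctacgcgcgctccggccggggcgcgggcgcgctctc
CCNL1: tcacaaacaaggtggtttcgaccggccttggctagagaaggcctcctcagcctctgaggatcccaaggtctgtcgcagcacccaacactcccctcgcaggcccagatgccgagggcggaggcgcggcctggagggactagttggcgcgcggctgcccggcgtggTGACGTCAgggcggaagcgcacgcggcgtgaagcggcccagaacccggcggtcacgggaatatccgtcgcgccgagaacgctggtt
CCNA2 had 1 CRE, starting 81 bases before the start, and 1 CCAAT box on the opposite strand (ATTGG) 56 bases before it. CCNB2 had 4 CCAAT boxes, at 244, 120, 87 and 54 bases before the start, and 1 CHR at 29. CCNF also had 4 CCAAT boxes, at 250, 239, 210 and 106, with CHR letters at 233 (TTCGAA) and 85 (TTTGAA). Of all promoters, 0.874% held 4 or more CCAAT boxes and 1.9% held 2 or more CHR matches. CCNL1 had no CCAAT box but 1 CRE at 86 bases before its start. CCNB1, not printed, had CCAAT boxes at 87 and 55 bases and no CHR, and CCNE1 had 7 GC boxes in a window of 81.2% GC and none of the other motifs. No E2F letters were found in the windows of these 7 genes. These matches describe the letters only, and other forms of these motifs were not searched for, so a gene with no match may still hold one.

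Transcript abundance per length (TPM) put the mitotic cyclin CCNB1 first, with a median of 695 TPM over the 14 libraries and a range of 500 to 737. CCND1 followed at 186 TPM (116 to 234), then CCNA2 at 142 (121 to 175), CCNB2 at 121 (81.8 to 127) and CCND3 at 86.9 (38.6 to 103). Lower still were CCNL1 at 35.5 TPM (27.1 to 57.5), CCNE2 at 23.6 (15.4 to 34.9), CCNE1 at 22.3 (16.1 to 34.4) and CCNF at 17.4 (7.21 to 21.3). CCND2, with a median of 0.174 TPM (0.0716 to 0.35), was close to undetected. The ranges of CCNB1 and of CCND2 over all 14 libraries overlapped with no other cyclin, while the other 8 each overlapped with their neighbours in this order. On this scale control replicate 2 was the lowest library for CCND1, CCND3, CCNE1, CCNA2, CCNB1, CCNB2 and CCNF and the highest for CCNL1. In the 12 treated libraries alone CCNB2 (105 to 127 TPM), CCND3 (69.7 to 103) and CCNL1 (27.1 to 50.3) did not overlap. Of the 3 D cyclin mRNAs, 2 were at sizeable levels, and the ranges of both E cyclin mRNAs nearly coincided.

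**Figure D1:**
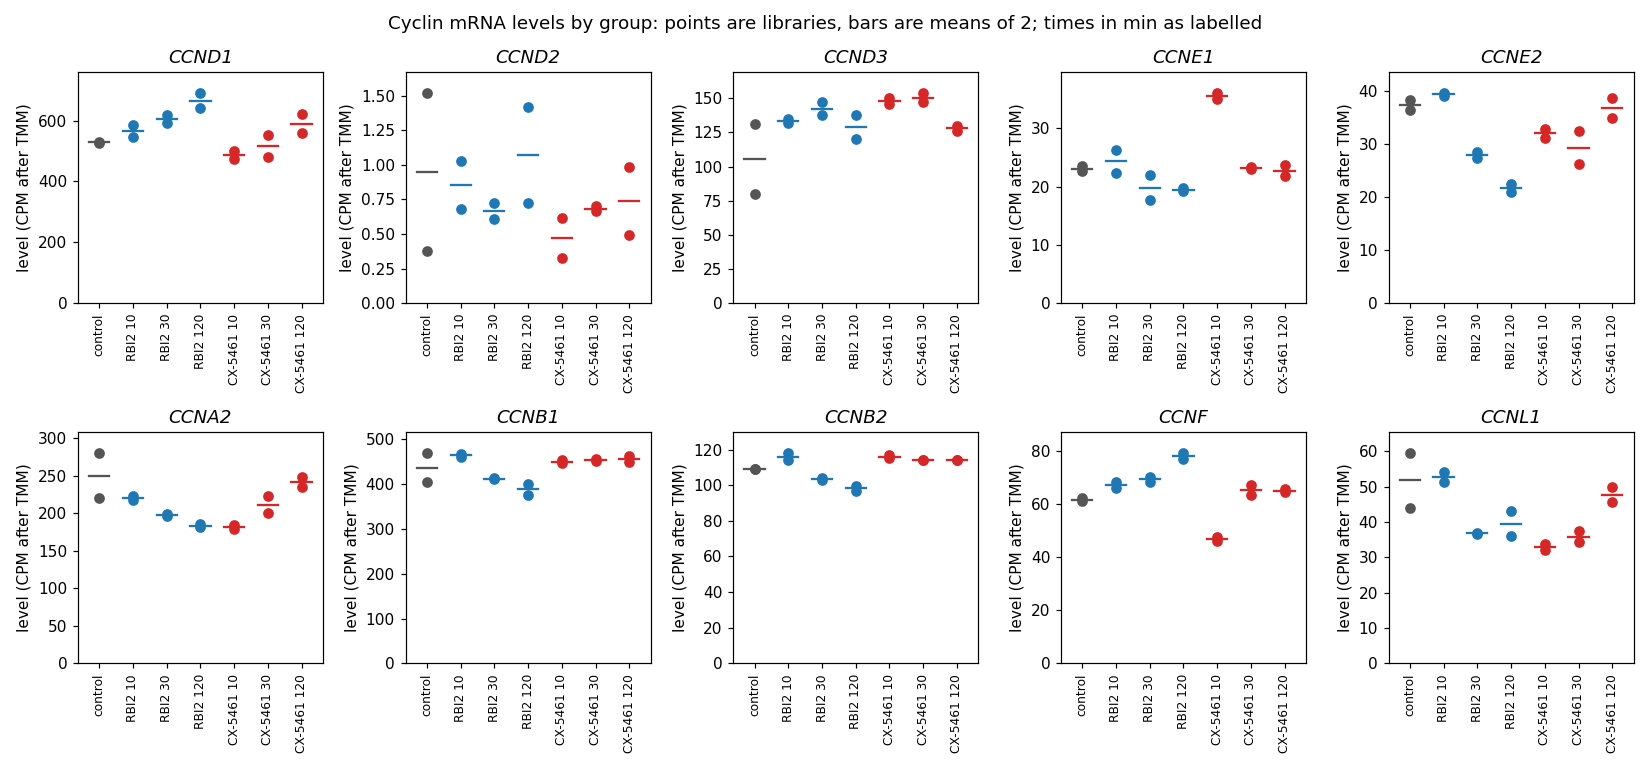
Level of each of the 10 cyclins as reads scaled to library size (CPM after TMM scaling, linear axis from 0) in each of the 14 libraries; points are libraries, bars are means of 2, grey is control, blue is RBI2 and red is CX-5461, with labelled times in min. CCNE1 stood above all other groups in CX-5461 10 min (35.0 and 36.1 CPM), CCNF was lowest there (46.1 and 47.6 CPM), and CCNE2 was lowest in RBI2 120 min (20.9 and 22.4 CPM).

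Differences between groups were tested for all genes together with edgeR's quasi-likelihood test and Benjamini-Hochberg adjustment over all genes tested, and a gene is said to have passed, risen or fallen at an adjusted p below 0.05. Over 16 comparisons the 10 cyclins gave 160 tests, of which 24 passed, in 7 cyclins. None of the 24 reached a 2-fold change, and the largest was 0.86 in absolute log2 fold change. CCNF passed in 7 comparisons, CCNE1 in 5, CCNE2 and CCNA2 in 3 each, and CCND1, CCNB2 and CCNL1 in 2 each, while CCND2, CCND3 and CCNB1 passed in none. None of the 24 differences changed sign under any alternative, but every one of the 24 missed the threshold when some single library was left out. When the counts were also corrected for the effective transcript lengths that Salmon gave each library, 4 of the 24 passed. The estimated spread between replicates was 12.3% without and 16.5% with this correction. It was 7.79% without and 11.6% with the correction when control replicate 2 was left out. With both changes more of the calls passed than with the correction alone, as given at the end. In control replicate 2 the effective length of CCNF was 7813 bases against 4814 to 5426 in the others, and that of CCNL1 955 bases against 1111 to 1691. The libraries concerned are named with each gene, and adjusted p-values are those without that library. A group of 2 that loses a library has 1 left, which is then assumed to vary like the other groups, from which the spread is taken.

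Against the control, 4 of the 10 cyclins passed in RBI2 120 min, where 18.0% of all genes tested passed. CCND1 and CCNF were higher (8.90% of all genes were) and CCNE2 and CCNA2 lower (9.07%). In CX-5461 10 min 4 passed as well, beside 4.77% of all genes: CCNE1 was higher (1.80% of all genes) and CCNA2, CCNF and CCNL1 lower (2.98%). The median log2 fold change of the 10 cyclins was -0.16 in RBI2 120 min and -0.17 in CX-5461 10 min, where the medians of all genes tested were 0.01 and -0.04. No cyclin passed against the control in RBI2 10 min (0.201% of all genes), RBI2 30 min (0.0713%), CX-5461 30 min (0%) or CX-5461 120 min (0.0778%). In these 4 comparisons edgeR gave 0, 6, 4 and 0 cyclins with an unadjusted p below 0.05, where 12.9%, 25.8%, 22.9% and 12.4% of all genes had one. DESeq2 called 3 cyclins in RBI2 30 min, with log2 fold changes of -0.33 for CCNA2, -0.48 for CCNL1 and -0.41 for CCNE2, where it called 9.61% of the genes it tested, and 0 in the other 3 comparisons. With no filter, edgeR called CCND3 and CCNL1 in RBI2 30 min (6.70% of all genes) and in CX-5461 30 min (6.25%). It then called 0 cyclins in RBI2 10 min (2.79%) and CX-5461 120 min (1.90%). By edgeR without control replicate 2 no cyclin passed in any of the 4. Leaving out control replicate 1 instead, 3 cyclins passed in RBI2 10 min (29.1% of all genes), 4 in RBI2 30 min (38.3%), 4 in CX-5461 30 min (39.3%) and 1 in CX-5461 120 min (21.5%). All of these comparisons share the same control libraries.

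Setting the compounds against each other involves no control library in the difference. At the 10 min label 3 cyclins passed, where 3.06% of all genes did: CCNF and CCNL1 were higher in RBI2 (2.23% of all genes) and CCNE1 lower (0.830%). At 120 min 4 passed, beside 16.1% of all genes, with CCNF higher in RBI2 (5.28%) and CCNE2, CCNA2 and CCNB2 lower (10.9%). At 30 min 0 cyclins passed by edgeR and 0 by DESeq2, 2 had an unadjusted p below 0.05 (7.79% of all genes had one), and 0.0130% of all genes passed. Averaged over the 3 labels, CCND1 and CCNF were higher in RBI2 than in CX-5461 (6.81% of all genes) and CCNE1 was lower (1.95%), and 8.76% of all genes passed in either direction.

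**Figure D2:**
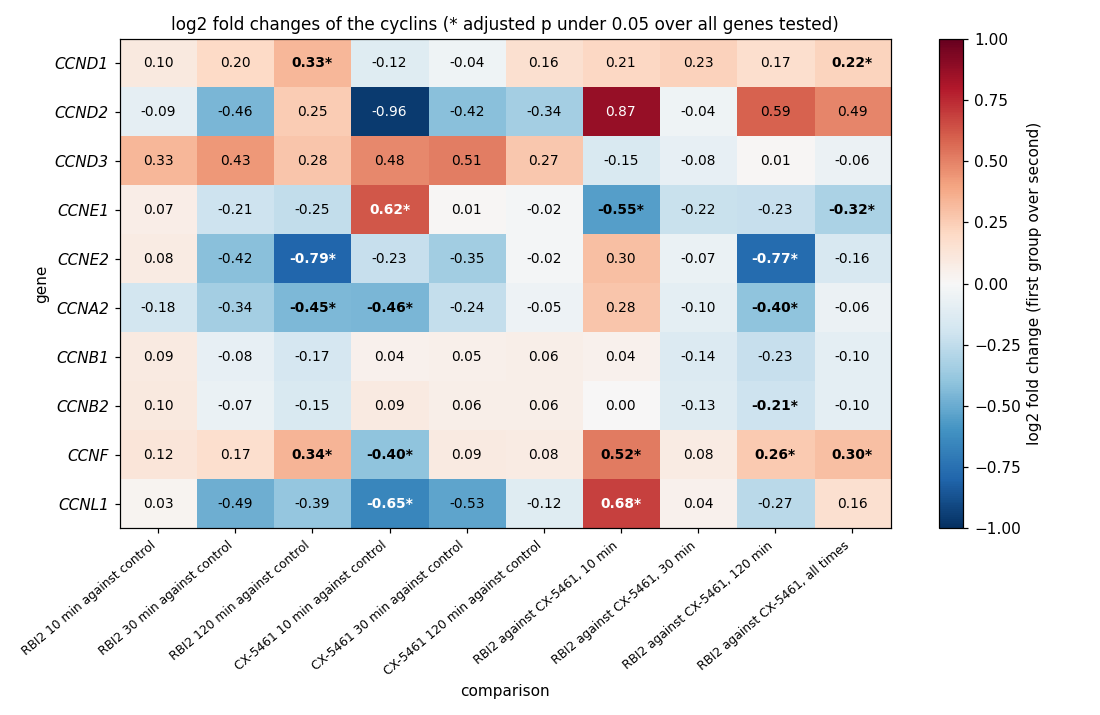
log2 fold changes of the 10 cyclins (rows) in 10 comparisons (columns), first-named group over second, from blue (lower) over white to red (higher); a star marks an adjusted p below 0.05 over all genes tested. Stars fall on CCNF in RBI2 120 min and in CX-5461 10 min with opposite signs (0.34 and -0.40), and on CCNE2 in RBI2 120 min only (-0.79) among the 6 comparisons with the control.

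CCND1 (ENSG00000110092, chr11:69641156-69654474, plus strand) encodes cyclin D1, the partner of CDK4 and CDK6 that is often in excess in breast cancer. Its level, as CPM (reads scaled to the library's size, for comparing libraries but not genes), was 527 and 529 CPM in the control, 545 and 585 CPM in RBI2 10 min, 617 and 592 CPM in RBI2 30 min and 691 and 640 CPM in RBI2 120 min. With CX-5461 it was 499 and 475 CPM at 10 min, 552 and 479 CPM at 30 min and 558 and 621 CPM at 120 min. All 6 RBI2 libraries lay above both controls, whereas CX-5461 libraries lay on both sides of them. CCND1 rose in RBI2 120 min against the control, by 0.33 ± 0.09 (SE) in log2 fold change (adjusted p = 0.0286), and was higher in RBI2 than in CX-5461 over all times by 0.22 ± 0.04 (adjusted p = 0.0127). The first call was lost without control replicate 2 (0.33, adjusted p = 0.0543), RBI2 30 min replicate 2 (0.0521), RBI2 120 min replicate 1 (0.14) or RBI2 120 min replicate 2 (0.0866). The second was lost without RBI2 10 min replicate 2 (0.19, adjusted p = 0.0586).

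CCND2 (ENSG00000118971, chr12:4269771-4305353, plus strand) encodes cyclin D2 and had 6 to 24 reads a library, or 0.323 to 1.52 CPM. Its control libraries, at 0.373 and 1.52 CPM, spanned nearly the whole range, so differences of the size seen in other cyclins were not detectable at this depth. In CX-5461 10 min its log2 fold change was -0.96 against both controls and -1.69 without control replicate 1. CCND3 (ENSG00000112576, chr6:41934934-42050357, minus strand), which encodes cyclin D3, had 131 and 80.0 CPM in the control and 120 to 154 CPM in the 12 treated libraries. Control replicate 2 was thus lower than all the others and control replicate 1 lay within the treated range. CCND3 passed in no comparison after the filter, with log2 fold changes against the control from 0.27 to 0.51 and SE of 0.17. By edgeR with no filter CCND3 passed in RBI2 30 min (0.45, adjusted p = 0.00293), CX-5461 10 min (0.50, 4.3e-04) and CX-5461 30 min (0.54, 1.3e-04). Of all genes 6.70%, 6.78% and 6.25% passed there. With control replicate 2 as the only control it passed in all 6 comparisons with the control, with log2 fold changes of 0.68 to 0.91, where 21.5% to 43.1% of all genes passed, and with control replicate 1 as the only control in none of them.

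CCNE1 (ENSG00000105173, chr19:29811991-29824312, plus strand) encodes cyclin E1, the CDK2 activator of the G1 to S transition. Its level was 23.5 and 22.7 CPM in the control and rose to 35.0 and 36.1 CPM in CX-5461 10 min. In the later CX-5461 groups it was 23.1 and 23.3 CPM at 30 min and 23.7 and 21.8 CPM at 120 min. With RBI2 it was 26.3 and 22.4 CPM at 10 min, 22.0 and 17.7 CPM at 30 min and 19.7 and 19.2 CPM at 120 min. Only the CX-5461 10 min pair stood clear of all other libraries, about 1.54-fold above the control mean.
Against the control, CCNE1 in CX-5461 10 min was higher by 0.62 ± 0.12 in log2 fold change (adjusted p = 0.0122; 0.60 and 0.0458 without control replicate 2). RBI2 10 min was lower than CX-5461 10 min (log2 fold change -0.55 ± 0.11, adjusted p = 0.0294). CX-5461 30 min and 120 min were lower than 10 min, with log2 fold changes of -0.62 (adjusted p = 0.0191) and -0.64 (adjusted p = 0.0136), and over all times RBI2 was lower than CX-5461 (-0.32 ± 0.08, adjusted p = 0.031). The call against the control was lost without CX-5461 10 min replicate 1 (adjusted p = 0.081) or replicate 2 (0.0996), and in the length-corrected fit (0.56, 0.0591). The compound difference at 10 min was lost without any of the 4 libraries at that label (adjusted p from 0.0643 to 0.281), either CX-5461 30 min library (0.05 and 0.0508) or either RBI2 120 min library (0.0578 and 0.0596). The 30 min against 10 min call was lost without any of its own 4 libraries (0.129 to 0.182) or RBI2 120 min replicate 1 (0.0503), and the 120 min against 10 min call without any of its own 4 (0.0525 to 0.146). The call over all times was lost without either CX-5461 10 min library, CX-5461 120 min replicate 1, or replicate 2 of RBI2 10, 30 or 120 min (0.0556 to 0.0802).

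CCNE2, on chromosome 8 (ENSG00000175305), encodes the second E cyclin. Its level was 38.3 and 36.5 CPM in the control, 39.7 and 39.2 CPM in RBI2 10 min, 27.4 and 28.6 CPM in RBI2 30 min and 20.9 and 22.4 CPM in RBI2 120 min. With CX-5461 it was 31.2 and 32.9 CPM at 10 min, 32.5 and 26.2 CPM at 30 min and 34.9 and 38.8 CPM at 120 min. The RBI2 120 min pair lay below the other 12 libraries, and within RBI2 the 3 labels did not overlap. CCNE2 was lower in RBI2 120 min than in the control (log2 fold change -0.79 ± 0.11, adjusted p = 0.00576; -0.83 and 0.00725 without control replicate 2), than in CX-5461 120 min (-0.77 ± 0.11, adjusted p = 0.0067) and than in RBI2 10 min (-0.86 ± 0.11, adjusted p = 0.00545). These were the largest log2 fold changes among the calls of the 10 cyclins. In the same comparison with the control CCNE1 had -0.25 ± 0.12 (adjusted p = 0.16), and in the one where CCNE1 rose, CX-5461 10 min, CCNE2 had -0.23 and did not pass; the difference between both E cyclins was not tested. The call against the control was lost without RBI2 120 min replicate 1 (-0.72, adjusted p = 0.0574) and in the length-corrected fit (-0.59, 0.0967). The call against CX-5461 was lost without CX-5461 120 min replicate 2 (0.0522) or RBI2 120 min replicate 1 or 2 (0.0571 and 0.0677), and the one against RBI2 10 min without RBI2 10 min replicate 1 (0.068) or RBI2 120 min replicate 1 or 2 (0.0644 and 0.0602).

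CCNA2 (ENSG00000145386, chr4:121816444-121823883, minus strand) encodes cyclin A2, needed for DNA replication and for entry into mitosis. Its level was 220 and 280 CPM in the control, 223 and 217 CPM in RBI2 10 min, 196 and 199 CPM in RBI2 30 min and 181 and 186 CPM in RBI2 120 min. With CX-5461 it was 179 and 184 CPM at 10 min, 223 and 200 CPM at 30 min and 235 and 248 CPM at 120 min. Within RBI2 the levels did not overlap between labels and were lowest at 120 min, and within CX-5461 they were lowest at 10 min and highest at 120 min. CCNA2 fell against the control in RBI2 120 min (log2 fold change -0.45 ± 0.1, adjusted p = 0.0205) and in CX-5461 10 min (-0.46 ± 0.1, adjusted p = 0.0295), and was lower in RBI2 120 min than in CX-5461 120 min (-0.40 ± 0.1, adjusted p = 0.0278). None of these 3 calls passed with length correction. Control replicate 2 was the highest library of all, and without it the values against the control were -0.27 (adjusted p = 0.0434) and -0.27 (adjusted p = 0.0705). The RBI2 120 min call was lost without either of its own libraries (0.113 and 0.0913). The CX-5461 10 min call was also lost without CX-5461 10 min replicate 1 (0.16) or 2 (0.129), CX-5461 120 min replicate 1 (0.0501), or replicate 2 of RBI2 10, 30 or 120 min (0.057, 0.0599 and 0.0558). The compound difference at 120 min was lost without any of its own 4 libraries (0.0649 to 0.162) or RBI2 30 min replicate 1 (0.051).

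CCNB1 (ENSG00000134057, chr5:69167135-69178245, plus strand) and CCNB2 (ENSG00000157456, chr15:59105126-59125045, plus strand) encode cyclins B1 and B2, the CDK1 partners of mitosis. CCNB1 was at 469 and 404 CPM in the control, 460 and 468 CPM in RBI2 10 min, 411 and 413 CPM in RBI2 30 min and 400 and 376 CPM in RBI2 120 min, against 446 to 462 CPM in the 6 CX-5461 libraries. The control libraries alone covered most of this range, and CCNB1 passed in no comparison. Its log2 fold change in RBI2 120 min was -0.17 ± 0.07 against the control (adjusted p = 0.128) and -0.23 ± 0.07 against CX-5461 (adjusted p = 0.0587). Without control replicate 2 these were -0.28 (adjusted p = 0.0216) and -0.21 (adjusted p = 0.00837). CCNB2 was tighter, with 109 and 109 CPM in the control, 114 and 118 CPM in RBI2 10 min, 104 and 103 CPM in RBI2 30 min, 96.5 and 99.8 CPM in RBI2 120 min and 114 to 117 CPM in the CX-5461 libraries. It had the smallest span of the 10 cyclins, 1.18-fold from the highest to the lowest group mean. CCNB2 was lower in RBI2 120 min than in CX-5461 120 min (log2 fold change -0.21 ± 0.06, adjusted p = 0.0361) and than in RBI2 10 min (-0.25 ± 0.06, adjusted p = 0.0398). Either call was lost when any of 11 of the 12 treated libraries was left out, all but CX-5461 30 min replicate 2 (adjusted p from 0.0547 to 0.367 and from 0.0578 to 0.262). With no single library left out, the call between compounds was also lost in 7 of 9 other ways of processing (adjusted p over the 9 from 0.0181 to 0.451), and the call within RBI2 in 4 of 9 (0.00312 to 0.292). Both were lost with no filter, with the replicate block and with either length correction.

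CCNF (ENSG00000162063, chr16:2429394-2458854, plus strand), the F-box cyclin, passed most often. Its level was 62.2 and 61.1 CPM in the control, 66.0 and 68.3 CPM in RBI2 10 min, 68.4 and 70.4 CPM in RBI2 30 min and 76.9 and 79.3 CPM in RBI2 120 min. With CX-5461 it was 46.1 and 47.6 CPM at 10 min, 63.6 and 67.3 CPM at 30 min and 64.5 and 65.6 CPM at 120 min. The CX-5461 10 min pair was the lowest of all libraries and the RBI2 120 min pair the highest, with the control pair below every other treated library. CCNF rose in RBI2 120 min against the control (log2 fold change 0.34 ± 0.07, adjusted p = 0.0137) and fell in CX-5461 10 min (-0.40 ± 0.07, adjusted p = 0.00843). Without control replicate 2 these were 0.32 (adjusted p = 0.0265) and -0.41 (adjusted p = 0.0119). With length correction they were 0.64 (adjusted p = 0.103) and -0.11 (adjusted p = 0.777).

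In the comparisons that use no control library, CCNF was higher in RBI2 than in CX-5461 at 10 min (log2 fold change 0.52 ± 0.07, adjusted p = 0.00196), at 120 min (0.26 ± 0.07, adjusted p = 0.0264) and over all times (0.30 ± 0.06, adjusted p = 0.0154). Within CX-5461 it was higher at 30 min (0.48, adjusted p = 0.00371) and at 120 min (0.47, adjusted p = 0.00484) than at 10 min. With length correction the call over all times passed and the others did not. With no filter the compound difference at 120 min was also lost. The CX-5461 10 min call against the control was lost without CX-5461 10 min replicate 1 or 2 (0.135 and 0.1), and the RBI2 120 min call without RBI2 120 min replicate 1 or 2 (0.0795 and 0.0893). Without CX-5461 10 min replicate 1 the 10 min compound difference (0.0549), the 30 min against 10 min difference (0.0654) and the 120 min against 10 min difference (0.127) did not pass, and the last was also lost without CX-5461 10 min replicate 2 (0.0932) or CX-5461 120 min replicate 2 (0.089). At 120 min the compound difference was lost without any of its own 4 libraries (0.0961 to 0.157), RBI2 10 min replicate 2 (0.0507) or RBI2 30 min replicate 2 (0.0553), and over all times without CX-5461 10 min replicate 2 (0.0537) or RBI2 10 min replicate 2 (0.0596).

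CCNL1 (ENSG00000163660, chr3:157146508-157160760, minus strand), the cyclin of CDK11 in transcription and splicing, was at 44.1 and 59.5 CPM in the control, 54.2 and 51.3 CPM in RBI2 10 min, 36.7 and 36.9 CPM in RBI2 30 min and 36.1 and 43.0 CPM in RBI2 120 min. With CX-5461 it was 33.7 and 32.0 CPM at 10 min, 37.4 and 34.3 CPM at 30 min and 45.6 and 49.8 CPM at 120 min. The CX-5461 10 min pair was the lowest, and control replicate 2 the highest. CCNL1 fell in CX-5461 10 min against the control (log2 fold change -0.65 ± 0.14, adjusted p = 0.0212) and was higher in RBI2 10 min than in CX-5461 10 min by 0.68 ± 0.14 (adjusted p = 0.022). The first call was lost without control replicate 2 (-0.42, adjusted p = 0.0716) or CX-5461 10 min replicate 1 or 2 (0.103 and 0.152), and the length-corrected value was -1.07 (adjusted p = 0.0890). The second was lost without any of its own 4 libraries (0.104 to 0.163). In RBI2 120 min CCNL1 did not pass by edgeR after the filter (-0.39 ± 0.14, adjusted p = 0.0694). It did with DESeq2 (-0.38, adjusted p = 0.0428) and by edgeR with no filter (-0.37, adjusted p = 0.0479). Without control replicate 1 its log2 fold change was -0.6.

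Within a compound, the cyclins that passed between labels were CCNE2 and CCNB2 for RBI2 120 min against 10 min (6.44% of all genes passed, 3.01% lower) and CCNE1 and CCNF for CX-5461 30 min against 10 min (2.43%, of which 1.40% higher and 1.03% lower) and 120 min against 10 min (3.12%, of which 2.16% higher and 0.959% lower). CCNF was the higher and CCNE1 the lower of these at both later CX-5461 labels. No cyclin passed by edgeR in RBI2 30 min against 10 min (0.188% of all genes), RBI2 120 min against 30 min (0.0130%) or CX-5461 120 min against 30 min (0.0130%). In these 3 comparisons 5, 2 and 3 cyclins had an unadjusted p below 0.05, as had 9.21%, 10.3% and 19.3% of all genes, and DESeq2 called 1 (CCNE2), 0 and 0. Without control replicate 2, whose removal lowered the estimated spread between replicates from 12.3% to 7.79%, CCNL1, CCNA2, CCND1, CCNB1 and CCNF passed as well in RBI2 120 min against 10 min (log2 fold changes -0.41, -0.25, 0.25, -0.25 and 0.23), while the share of all genes that passed rose from 6.44% to 18.3%. Without control replicate 1, 6 cyclins passed there, with 17.9% of all genes. Leaving out control replicate 2 also let CCNL1 and CCNE2 pass in RBI2 30 min against 10 min (-0.51 and -0.48, with 1.06% of all genes) and CCND3 and CCNL1 in CX-5461 120 min against 30 min (-0.27 and 0.37, with 6.34%). Leaving out control replicate 1 let CCNL1 pass in both (-0.52 with 0.954%, and 0.41 with 8.74%). In CX-5461 120 min against 10 min, CCNA2 and CCNL1 passed as well without control replicate 2 (0.39 and 0.51, with 10.2% of all genes), without control replicate 1 (0.41 and 0.54, with 10.7%) and by DESeq2 (0.37 and 0.50, with 4.45% of the genes it tested), and by edgeR with no filter or with only the 4 libraries compared. In CX-5461 30 min against 10 min CCNA2 passed without control replicate 2 (0.23, adjusted p = 0.0461, with 4.76% of all genes).

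Most cyclin reads came from the main protein-coding transcript, as divided by Salmon, whose split between transcripts of a gene is uncertain. CCND1-201 held 99.3% to 100% of CCND1 reads and CCNB2-201 held 96.6% to 99.2% of CCNB2 reads, and CCNA2 has 1 transcript. CCNB1-201 held 36.9% to 51.6%. CCNE2-201 held 93.1% to 99.5% of CCNE2 reads in 13 libraries but 0% in control replicate 2, where CCNE2-205 had 78.1% and CCNE2-202 had 20.1%. The few CCND2 reads were given mainly to CCND2-205, a transcript with no defined coding sequence, except in CX-5461 10 min replicate 1, where CCND2-206 had all of them.

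Of 96 cyclin transcripts 41 were tested, and over 15 comparisons 4 calls were made, all of them CCNE1-206, a shorter protein-coding transcript of CCNE1. It was listed at 0 in both RBI2 30 min libraries and had 78.0 and 68.9 reads in the control, 79.8 and 61.0 reads in RBI2 10 min, 82.7 and 29.1 reads in RBI2 120 min and 58.9 and 69.9 reads in CX-5461 30 min. Against a floor of 3 reads over the group, RBI2 30 min was at least 56.8-fold lower than the control (adjusted p = 0.00737, and 0.0216 without control replicate 2; 0.106% of all 54804 transcripts tested passed), at least 50.4-fold lower than CX-5461 30 min (0.0148; 0.0438%) and at least 51.5-fold lower than RBI2 10 min (0.012; 0.0438%). RBI2 120 min was at least 43.0-fold higher than RBI2 30 min (0.00911; 0.0931%). CCNE1-201 took 98.9% and 73.5% of the gene's reads in the 2 RBI2 30 min libraries, and the level of the whole gene did not pass there. CCNE1-203, another protein-coding transcript, took 0% and 20.4% in them. It was at 0% in most libraries but at 21.6% in CX-5461 10 min replicate 1. Whether the 0 of CCNE1-206 came from Salmon's uncertain split of reads between these transcripts was not tested.

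Transcripts of CCNL1 with a retained intron or marked for nonsense-mediated decay took a large and variable share of its reads: 36.6% and 54.2% in the control, 40.9% and 31.3% in RBI2 10 min, 23.9% and 29.8% in RBI2 30 min and 38.4% and 63.3% in RBI2 120 min. In CX-5461 10 min the share was 24.8% and 22.1%, in CX-5461 30 min 29.1% and 34.7%, and in CX-5461 120 min 50.5% and 48.1%. Within CX-5461 the shares did not overlap between labels. Reads of CCNL1 in coding transcripts were 27.9 and 27.3 CPM in the control against 25.3 and 24.9 CPM in CX-5461 10 min, and reads in the other transcripts 16.1 and 32.3 CPM against 8.35 and 7.06 CPM. So most of the CPM by which the gene was lower in CX-5461 10 min lay in its retained-intron and decay transcripts. For CCNF the share was 20.9% and 41.0% in the control, and from 0.353% to 40.8% in the treated libraries. CCNF reads in coding transcripts were 49.2 and 36.1 CPM in the control against 45.9 and 37.0 CPM in CX-5461 10 min, which overlap, and reads in the other transcripts 13 and 25.1 CPM against 0.163 and 10.7 CPM, which do not. These shares are given as a description, with no test.

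**Figure D3:**
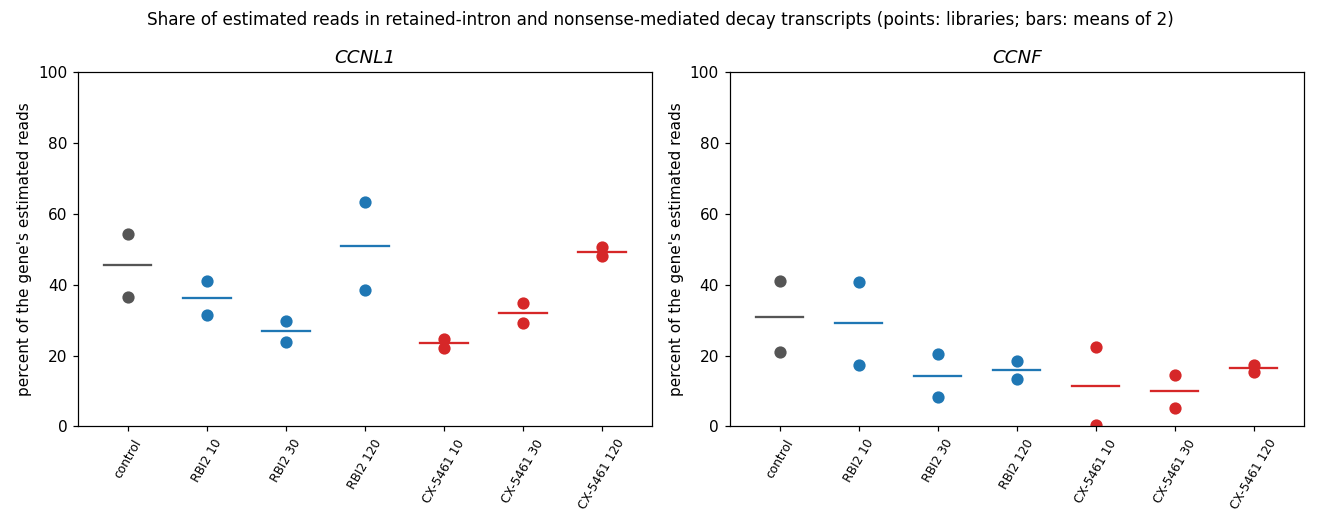
Share of the estimated reads of CCNL1 (left) and CCNF (right) in transcripts annotated as retained intron or nonsense-mediated decay, in percent from 0 to 100, for each of the 14 libraries; points are libraries, bars are means of 2, grey is control, blue is RBI2 and red is CX-5461. For CCNL1 the CX-5461 libraries lay at 22.1% to 24.8% at the 10 min label and at 48.1% to 50.5% at 120 min, while the RBI2 120 min pair was far apart (38.4% and 63.3%).

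Other genes of the cell cycle were read from lists of other cyclins (17 of 20 tested), CDKs (19 of 20), CDK inhibitors (6 of 8), RB and E2F genes (13), cyclin degradation genes (29), mitotic genes (31) and S phase genes (25). CDKN2A and CDKN2B, inhibitors of CDK4 and CDK6, were at 0 TPM in all libraries. Of all these genes, CCNG2 and CDKN1A were those that passed with a change of at least 2-fold, both in CX-5461 10 min. CCNG2, a cyclin linked to cell-cycle arrest, had 8.95 and 8.55 CPM in the control and 19.6 and 18.6 CPM in CX-5461 10 min (log2 fold change 1.12 ± 0.12, adjusted p = 4.2e-04; 1.09 and 0.0017 without control replicate 2), and was lower in RBI2 10 min (10.3 and 10.3 CPM; -0.89 against CX-5461, adjusted p = 0.00187). CDKN1A, which encodes the p53 target and CDK inhibitor p21, had 25.0 and 17.6 CPM in the control and 46.6 and 42.9 CPM in CX-5461 10 min (1.06 ± 0.15, adjusted p = 0.00265; 0.84 without control replicate 2, adjusted p = 0.00309). CDKN1B, which encodes the inhibitor p27, went the other way, from 33.7 and 38.7 CPM to 19.3 and 18.8 CPM (-0.92 ± 0.09, adjusted p = 2.3e-04; -0.82 and 2.7e-04 without control replicate 2). In RBI2 120 min CDKN1B had 25.2 and 24.3 CPM (-0.55, adjusted p = 0.00771; -0.45 and 0.0129 without control replicate 2). Some genes in these paragraphs were named after their values had been seen.

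In CX-5461 10 min few others passed, beside 4.77% of all genes. The only further calls were CCNT1, the cyclin of the elongation kinase CDK9 (-0.75, adjusted p = 0.0336), and the F-box genes FBXO5, an inhibitor of the anaphase-promoting complex (-0.70, adjusted p = 0.00731), and FBXW7, which targets cyclin E (-0.65, adjusted p = 0.0441). Without control replicate 2, CCNT1 (-0.47, adjusted p = 0.15) and FBXW7 (-0.53, adjusted p = 0.176) did not pass and FBXO5 did (-0.49, adjusted p = 0.0101). The other cyclins, with 1 higher and 1 lower, had 2 higher and 1 lower by DESeq2. With length correction they had 2 higher and 0 lower, beside 2.26% of all genes. By edgeR 0 CDKs, 0 RB and E2F genes, 0 mitotic genes and 0 S phase genes passed, with 3, 4, 9 and 5 at an unadjusted p below 0.05 (22.5% of all genes had one) and 0, 1, 0 and 1 called by DESeq2 (6.68% of the genes it tested). The extremes of these lists, none of which passed, were CDK3 (-1.21) and CDK4 (0.30), E2F7 (-0.63) and E2F1 (0.52), MKI67 (-0.70) and PKMYT1 (0.61), and GMNN (-0.23) and TK1 (0.55). Without control replicate 1 the mitotic genes had 3 higher and 18 lower and the S phase genes 9 higher and 3 lower, where 37.7% of all genes passed.

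In RBI2 120 min, where 18.0% of all genes passed, 37 of the 140 listed genes did, 9 higher and 28 lower (over all genes 8.90% were higher and 9.07% lower). The CDKs (15.8%) and the CDK inhibitors (16.7%, 1 gene) passed at no more than the share of all genes. With length correction 1 of the 140 passed, a CDK inhibitor, beside 1.40% of all genes, so these calls depend on that setting. The estimated spread between replicates was 16.5% with that correction and 12.3% without. Some log2 fold changes were then about as large or larger (ANLN -0.87, CDK17 -0.97, CDC6 -0.62, FBXO5 -0.51 and MYBL2 0.28). Others were smaller (CCNT1 -0.47, RB1 -0.52, FZR1 0.39, CDK9 0.25 and CHAF1A 0.21). Of the other cyclins 0 rose and 5 fell (CCNT1 -0.76, CCNJ -0.69, CCNT2 -0.64, CCNH -0.54 and CCNC -0.34), and the list's median was -0.29 against 0.01 for all genes. Of the CDKs 1 rose (CDK9, 0.37) and 2 fell (CDK17 -0.73 and CDK8 -0.40), and of the RB and E2F genes 1 rose (TFDP2, 0.39, but -0.35 with length correction, adjusted p = 0.483) and 2 fell (RB1 -0.72 and E2F8 -0.64). The mitotic genes had 1 higher (MYBL2, 0.27) and 7 lower, from ANLN, a cytokinesis protein (-0.89), to KIF20A (-0.49). The S phase genes had 2 higher (MCM2 0.41 and CHAF1A 0.32) and 6 lower, led by the replication licensing gene CDC6 (-0.43). Cyclin degradation genes were the most even, with 4 higher, led by the anaphase-promoting complex activator FZR1 (0.66), and 5 lower, led by FBXO5 (-0.57). The 37 calls became 21 without control replicate 2 and the share of all genes fell from 18.0% to 8.27%. The other cyclins then had 3 lower, the RB and E2F genes 1 higher and 0 lower, the CDKs 0 higher and 1 lower (CDK9 at 0.20, adjusted p = 0.134), the mitotic genes 1 higher and 1 lower and the degradation genes 2 higher and 4 lower, while the S phase genes had 1 higher and 6 lower. RB1 was then at -0.33 (adjusted p = 0.231) and ANLN at -0.41 (adjusted p = 0.124). CCNE2, CCNA2 and CCNF themselves passed with and without control replicate 2, but none of them passed with length correction. Without control replicate 1 the mitotic genes had 5 higher and 18 lower, where 43.1% of all genes passed, and DESeq2 on all libraries called 2 higher and 15 lower, with 26.9% of the genes it tested.

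Between the compounds at 120 min, where no control library enters the difference, 33 of the 140 listed genes passed, 3 higher and 30 lower in RBI2. Over all genes 16.1% passed, also more often lower (10.9%) than higher (5.28%), and the mitotic genes (16.1%) and CDKs (15.8%) passed at about that share. With length correction 10 of the 140 passed, all lower, beside 6.55% of all genes, at an estimated spread of 16.5% instead of 12.3%. Log2 fold changes were then about as large for RB1 (-0.93), CCNT1 (-0.74), CDK17 (-0.72), CHAF1A (0.29) and MYBL2 (0.25). They were smaller for ECT2 (-0.70), CUL3 (-0.49) and MCM6 (-0.33). The other cyclins had 4 lower (CCNT1 -0.77, CCNT2 -0.58, CCNJ -0.48 and CCNC -0.46) and 0 higher, the CDKs 3 lower (CDK17 -0.72, CDK8 -0.58 and CDK1 -0.39) and 0 higher, and the RB and E2F genes 4 lower (RB1 -0.88, RBL2 -0.79, E2F3 -0.47 and TFDP1 -0.34) and 0 higher. Cyclin degradation genes had 1 higher (AMBRA1, 0.51) and 8 lower, with CUL3 lowest (-0.75). Mitotic genes had 1 higher (MYBL2, 0.21) and 4 lower, with ECT2, needed for cytokinesis, lowest (-0.90). S phase genes had 1 higher (CHAF1A, 0.33) and 7 lower, with the helicase subunit MCM6 lowest (-0.57). Without control replicate 2, which enters the estimate of the spread but no group mean here, the other cyclins had 1 higher and 7 lower, the mitotic genes 3 and 14 and the S phase genes 2 and 12, with 27.9% of all genes passing. Of the 6 CDK inhibitors tested 0 passed by edgeR, 0 had an unadjusted p below 0.05 and 0 were called by DESeq2.

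**Figure D4:**
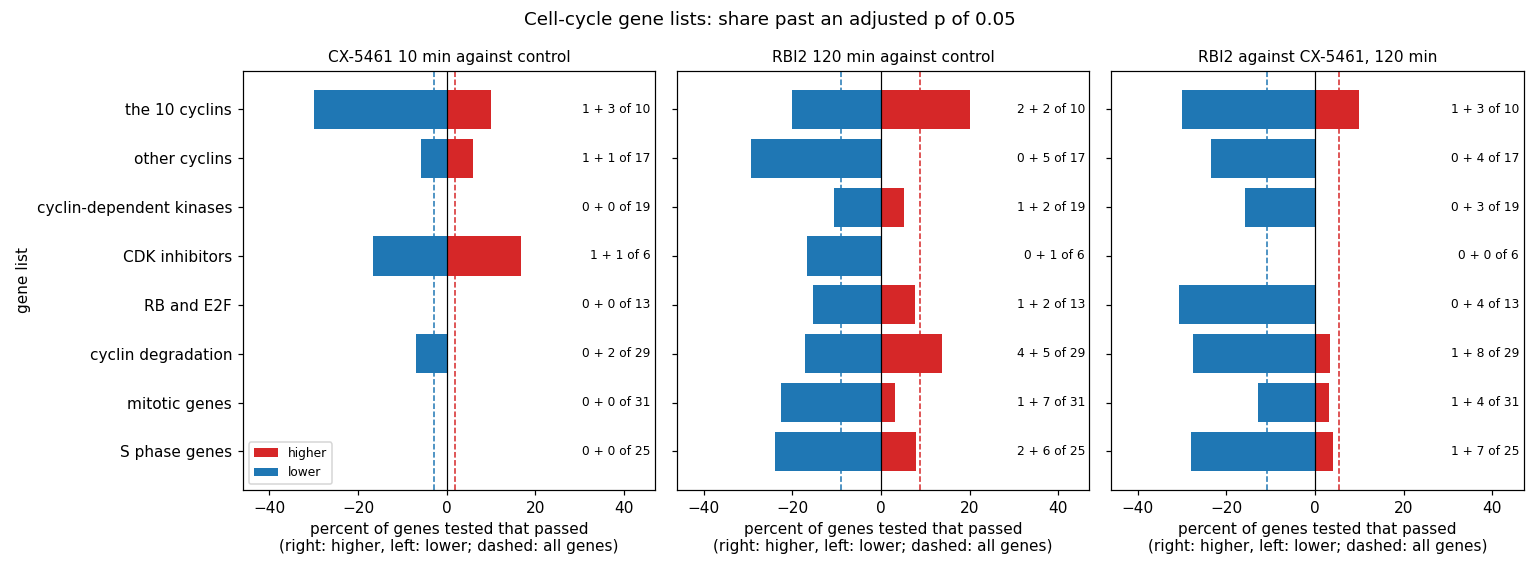
Percent of tested genes in each list that passed (adjusted p below 0.05 over all genes), higher to the right in red and lower to the left in blue, for CX-5461 10 min against control, RBI2 120 min against control and RBI2 against CX-5461 at 120 min; dashed lines mark the same percent over all genes tested, and the counts are higher + lower of tested. The 10 cyclins stood at 1 + 3, 2 + 2 and 1 + 3.

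Genes whose level followed a cyclin most closely over the 14 libraries were found by Pearson's r of log2 CPM among 10570 genes with at least 5 CPM on average. These r values are a description, since all genes share the libraries and control replicate 2. CCNA2 went with CCNT1 (r = 0.984), FBXO5 (0.97) and PALB2 (0.969), CCNE2 with TMEM87A (0.963), CCNC (0.945) and PPP2CA (0.944), and CCNE1 with NFIL3 (0.919), HHEX (0.915) and RSRP1 (0.911). CCNF went with ZNF526 (0.953) and SNHG17 (0.951), CCNL1 with DYRK1A (0.975), PCF11 (0.95) and ZNF134 (0.935), and CCND1 with ZNF587B (0.956), DLG5 (0.955) and CELF1 (0.944). CCNB1 went with HSD17B11 (0.951), TIMM17A (0.94) and MAD2L1 (0.936), and CCNB2 with PSMC2 (0.956), GLO1 (0.932) and PPP2R3C (0.929). CCND3, whose lowest library was control replicate 2, had the highest r of all, with BCL2L12 (0.986), ISOC2 (0.981) and CTSD (0.98), and CCND2, at few reads, went with PRKX (0.886), FOXO3 (0.842) and ZNF527 (0.838).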

How the data were processed

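MDA-MB-231 RNA was sequenced as 14 poly(A) libraries (KAPA stranded kit, HiSeq2000). The authors removed reads of ribosomal DNA and assigned the rest to GRCh38 transcripts with Salmon (1.3.0 in the submitters' processing notes, which also list STAR 2.7.6a, SAMtools 1.11, bedtools 2.29.2 and DESeq2 1.28.1). The deposited values used were estimated counts and TPM per transcript, with effective lengths. Of 228754 transcripts 225662 were matched to GENCODE 44, and the unmatched held 1.03% to 1.13% of reads. Estimated counts were summed per gene, rounded, and scaled by TMM.

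edgeR 4.0.16 (quasi-likelihood test, R 4.3.3, limma 3.58.1) was fitted to 7 groups of 2 after a filter with a minimum count of 10, with no covariate, and Benjamini-Hochberg adjustment over all genes. The fit over all times used the 12 treated libraries and 15442 genes, with labelled time as a term. Standard errors were the log2 fold change over the root of F. The code was tested on simulated data. DESeq2 1.42.0, other scalings and filters, length correction, a replicate block and each library left out were tried as alternatives, and the effect of each is given at the end. Genes of other lists were named if they passed with a 2-fold change or were the extremes of their list, and further genes that passed were named after their values were seen, and likeness, for which up to 3 genes are named for each cyclin and 1 result is not reported here, used a prior count of 2. A floor of 3 counts a group was used where a group was at 0. The cyclins, the lists and the tests were chosen with earlier results of these data known. Replicate numbers were not used as pairs in the main fit.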

Additional observations from a re-analysis of the deposited data

Results flagged for a closer look

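The effect of the compounds differed between RBI2 and CX-5461 for 7 combinations of cyclin and label, by the edgeR quasi-likelihood test of the difference itself with 2 libraries a group. At the 10 min label, where 3.06% of all genes passed, CCNE1 had a log2 difference, RBI2 over CX-5461, of -0.55 (adjusted p = 0.0294), CCNF of 0.52 (adjusted p = 0.00196) and CCNL1 of 0.68 (adjusted p = 0.022). At 120 min, where 16.1% of all genes passed, CCNA2 had -0.40 (adjusted p = 0.0278), CCNB2 -0.21 (adjusted p = 0.0361, lost in 7 of 9 other ways of processing), CCNF 0.26 (adjusted p = 0.0264) and CCNE2 -0.77 (adjusted p = 0.0067). In each of the 7 the 2 libraries of RBI2 lay entirely to one side of the 2 of CX-5461. This adds no support, since the 7 were chosen by the test of this same difference. CCND1 and CCNB1, which did not pass, were separated in this way at both labels as well. CCNF is the cyclin that differed at both labels, in the same direction. With length correction CCNE2 at 120 min was the only 1 of the 7 that passed, and each of the 7 missed the threshold without some single library. The CCNF call at 120 min was also lost with no filter. Over the alternatives the log2 difference of CCNF was 0.49 to 0.54 at 10 min and 0.23 to 0.36 at 120 min. Groups of 2 are too small for a test of single outlying libraries.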

How the results depend on the processing

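Over the 24 calls and their 588 alternative values, 397 kept direction and side of the threshold, 191 kept direction but missed it, and 0 reversed. DESeq2 called all 24. Against the control the 8 cyclin calls became 14 with no filter, counting new calls, 0 with length correction, 1 with length correction and control replicate 1 only (chosen after seeing the data), 0 with only the 4 libraries compared and 0 with a 2-fold limit, adjusted or not; leaving out 1 library gave 4 to 24, with 24 without control replicate 1 and 6 without control replicate 2. The 7 calls between compounds became 1 with length correction and 0 with either 2-fold limit, and 2 to 10 with 1 library left out. The 6 between labels became 0 with length correction, 17 with only the 4 libraries, 12 with DESeq2, 11 with DESeq2 unfiltered and 0 with a 2-fold limit, and 1 to 18 with 1 library left out. The 3 over all times became 0 with a 2-fold limit and 0 to 3 with 1 library left out. The 82 calls of the other lists became 149 with DESeq2, 542 without control replicate 1, 112 without control replicate 2 and 18 with length correction (chosen after seeing the data). The 4 transcript calls became 1 to 49 with 1 library left out. With length correction and control replicate 1 only (chosen after seeing the data), the groups compared below kept 2 libraries each. Counting new calls, 2 cyclins then passed between compounds at 10 min (2.75% of all genes), 0 at 30 min and 4 at 120 min (16.8%). Between labels 1 passed in RBI2 120 min against 10 min (2.61%). For CX-5461, 2 passed in 30 min against 10 min (2.26%) and 3 in 120 min against 10 min (4.08%). Where calls changed, the cause was not tested.

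With a replicate block the counts were 8, 6, 5 and 3 for cyclins, 72 for the other lists and 3 for transcripts. Deviations of same-numbered samples correlated at -0.179 to 0.18 over 21 pairs of groups (median -0.00315, 3 over 0.1). No strong shared deviation was seen, but these values cannot exclude a weaker pairing. Depth limits CCND2, at 6 to 24 reads a library.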
